A study of Homo sapiens with 6 samples.

Results

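The DDX and DHX genes encode RNA helicases of the DEAD-box and DEAH-box families, and they were followed here in A549 cells with and without a TFAM expression plasmid. Members were the protein-coding genes of the deposited count table whose symbol is DDX or DHX followed by a number and, in some, by further capital letters. Of 55 symbols of this form, DDX58, DHX58 and DDX3Y were set aside, and DDX12P is a pseudogene, which gave 51 members among 29845 genes. By the gene descriptions in the table, 34 of the 51 are DEAD-box genes, 14 are DEAH-box genes and 3 are named for either box.

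A549 cells are a widely used cell line from a human lung carcinoma. Cells were transfected by Lipofectamine 2000 with the plasmid pIRES-hrGFP-1a, either empty (control) or carrying FLAG-tagged human TFAM (TFAM-OE), and were collected after 48 hours. TFAM is a DNA-binding protein of mitochondria, and the comparison asks how its forced expression alters the RNA of these cells. PolyA RNA of 3 cultures per group was sequenced from both ends on an Illumina instrument, from strand-specific libraries. The control libraries held 32430766, 26650854 and 37321956 counted reads, and the TFAM-OE libraries 33579510, 36958682 and 28735164. Reads on the 51 helicase genes made up between 0.435% and 0.509% of each library.

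RNA helicases use ATP to unwind RNA duplexes or to strip proteins from RNA, and different members serve splicing, export, translation, decay and the assembly of ribosomes. Most are housekeeping genes that are transcribed in nearly every cell. DDX60 and DDX60L are different, since both are induced by interferon and are counted among the antiviral genes of epithelial cells.

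The labels were first compared with the data. TFAM itself had 76.0, 70.1 and 72.6 CPM (the count as a rate per library, after TMM scaling for library composition) in the control libraries and 71.8, 77.2 and 83.0 CPM in the TFAM-OE libraries. The groups overlapped. TFAM was at 0.08 on the log2 scale, with a standard error of 0.0960, and did not pass edgeR's quasi-likelihood test (adjusted p = 0.623, Benjamini-Hochberg). The 95% interval of the fold change ran from 0.914 to 1.23. The counts on the gene thus did not show higher TFAM RNA in the libraries labelled TFAM-OE, and a rise above 1.23-fold lay outside this interval. The libraries are named below as labelled. The study looked for the plasmid's product as protein, through its FLAG tag on a western blot, and reported that the overexpression succeeded. The blot was not analysed here. Epithelial keratins were abundant, with mean FPKM (the authors' measure per length of transcript and per library size) of 1367 for KRT7, 696 for KRT8, 517 for KRT18 and 86.9 for KRT19. The epithelial genes EPCAM and CDH1 were low, with means of 0.273 and 0.842 FPKM. The surfactant genes SFTPB and SFTPC had at most 2 and 6 reads in a library. Of the genes of blood, vessel and fibroblast cells, PTPRC and DCN had at most 1 read in any library, and COL1A1 had a mean of 0.503 FPKM.

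Levels of the helicases spanned a wide range. A total of 48 members had a mean above 1 FPKM and 31 a mean above 10 FPKM. DDX5, a coregulator of transcription and splicing, was the most abundant, with 138, 124 and 122 FPKM in the control and 115, 122 and 147 FPKM in the libraries labelled TFAM-OE. It alone held 10.7% of the summed helicase FPKM, the 5 most abundant members held 35.9% and the 10 most abundant held 54.7%. After DDX5 came the export factor DDX39A (mean 84.4 FPKM), the spliceosome and export factor DDX39B (80.0 FPKM), the nucleolar DDX56 (74.9 FPKM) and DDX23 of the U5 snRNP (58.9 FPKM). DDX56 was below DDX39A and DDX39B in each of the 6 libraries, while DDX39A was above DDX39B in 4 of the 6, so the order of that pair varied between libraries. By the mean share over all 6 libraries, which pools both groups, DDX60L stood at rank 43 and DDX60 at rank 48 of 51.

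**Figure D1:**
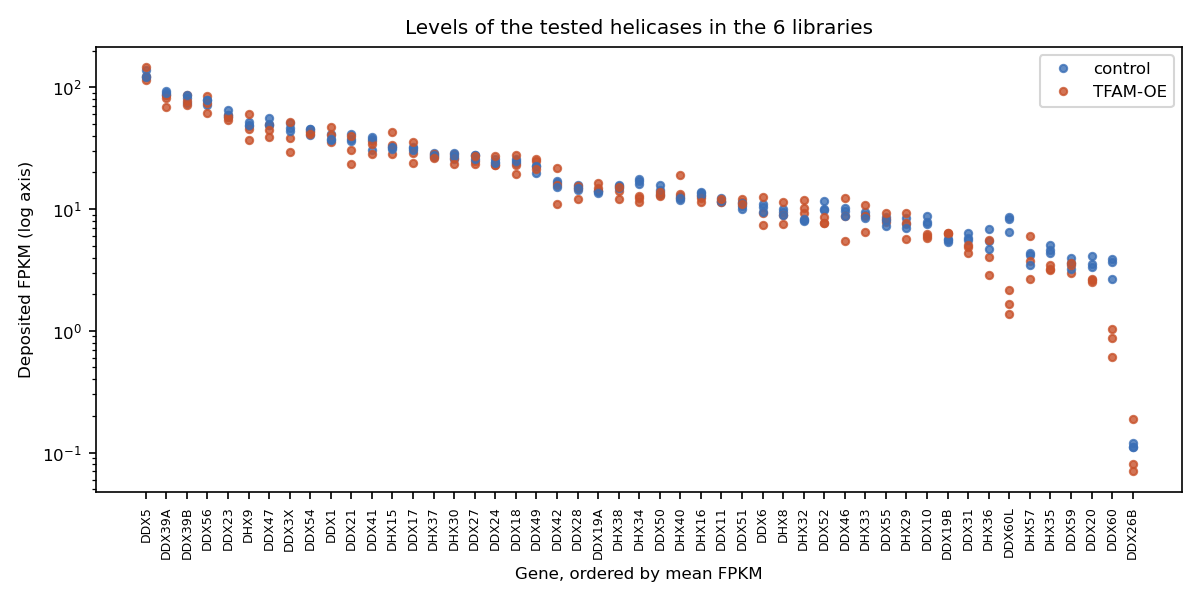
Deposited FPKM (log axis) of each helicase with a mean above 0.05 FPKM, ordered by its mean, with 1 point per library, control in blue and TFAM-OE in orange. DDX5 is at the top near 128 FPKM, and the groups lie apart most widely at DDX60L and DDX60.

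Few members were silent. DDX4, the germ cell helicase also called VASA, had 1 read in each of 2 libraries and 0 in the others, and DDX25, a testis helicase, had 1 read in each of 3 libraries. Neither could be tested. DDX26B matches by its symbol but is listed in GENCODE as INTS6L, and whether it is a helicase was not examined. It was assigned no role but is counted among the helicases below. Its range between the libraries labelled TFAM-OE, 1.21 on the log2 scale, was the widest of the members tested. It had between 11 and 24 reads in a library and a log2 fold change of -0.01 (standard error 0.375). The other 48 members were tested at far higher counts, so 49 of 51 members entered the comparison.

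DDX60 and DDX60L fell about 4-fold in the libraries labelled TFAM-OE, while the other 47 helicases tested stayed within 0.5 of 0 on the log2 scale. DDX60 had 25.6, 28.0 and 19.5 CPM in the control libraries and 4.61, 6.38 and 7.03 CPM in the libraries labelled TFAM-OE. DDX60L had 68.2, 72.6 and 55.7 CPM in the control and 12.3, 14.4 and 17.5 CPM in the libraries labelled TFAM-OE. For both genes every library labelled TFAM-OE lay below every control library, with control 3 the lowest of the controls and TFAM-OE 1 the lowest of all. In edgeR's quasi-likelihood test with Benjamini-Hochberg adjustment over 16555 genes, the log2 fold change was -2.02 for DDX60 (standard error 0.191, adjusted p = 2.72e-04) and -2.15 for DDX60L (standard error 0.155, adjusted p = 4.71e-05). The levels were thus 4.05 and 4.45 times lower, and the 95% intervals on the log2 scale ran from -2.45 to -1.59 and from -2.50 to -1.81. In bulk RNA, fewer cells that express a gene and less of its RNA in each cell cannot be told apart.

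Per length of transcript, DDX60L was the more abundant of the pair in every library. DDX60 had 3.71, 3.91 and 2.68 FPKM in the control and 0.61, 0.88 and 1.03 FPKM in the libraries labelled TFAM-OE, and DDX60L had 8.32, 8.54 and 6.44 FPKM against 1.37, 1.66 and 2.15 FPKM. The ratio of DDX60L to DDX60 was 2.24, 2.18 and 2.40 in the control and 2.25, 1.89 and 2.09 in the libraries labelled TFAM-OE, which overlap. Together they made up 0.982%, 1.01% and 0.748% of the helicase FPKM in the control libraries and 0.179%, 0.222% and 0.261% in the libraries labelled TFAM-OE. For scale, DDX60L stood at between 43.2% and 54.4% of the median of the other tested helicases in the control libraries and at between 10.7% and 14.2% in the libraries labelled TFAM-OE.

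The pair lies side by side on the minus strand of chromosome 4 of GRCh38, with DDX60 (ENSG00000137628.16) from 168216291 to 168318883 and DDX60L (ENSG00000181381.13) from 168356735 to 168537786. Of the 5916 stretches of 100 bases in the main transcript of DDX60, 0 occur in a transcript of DDX60L. DDX60L overlaps PALLD, which is on the plus strand, and how strand was used in counting is not given in the sources used here. PALLD had a mean of 115 CPM in the control and 101 CPM in the libraries labelled TFAM-OE, and its difference of -0.18 on the log2 scale did not pass edgeR's quasi-likelihood test (adjusted p = 0.407). Of the 5 neighbouring coding genes within 1 Mb that were tested, ANXA10, PALLD, CBR4, SH3RF1 and NEK1, none passed this test. Their log2 fold changes ran from -0.73 for NEK1, a gene with a mean of 4.56 CPM in the control, to 0.33 for CBR4.

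The start sites of both genes are shown because the pair moved together with the interferon-stimulated genes described further on. The windows come from RefSeq on GRCh38.p14 and cover 250 bases before and 50 bases after each start, and 47 of the 51 members had one (DDX18, DDX49, DDX52 and DHX33 did not). The core of the interferon response element, written GAAANNGAAA and searched on both strands with overlapping matches kept, occurred at 2 places before the start of each gene. Capitals mark the match in the strand of the gene, which is the minus strand, with 10 bases on either side. The matches of DDX60, in chr4:168318821-168318850 and chr4:168318786-168318815, begin 88 and 53 bases before its start, and those of DDX60L, in chr4:168480553-168480582 and chr4:168480523-168480552, begin 80 and 50 bases before its start. Both starts are those of the main GENCODE transcript, and both lie inside the outer bounds of the gene, by 131 bases in DDX60 and 57294 bases in DDX60L, since other transcripts start further out.
DDX60, 88 bases before the start: gtgctgaaggGAAACTGAAAcctaagtgct
DDX60, 53 bases before the start: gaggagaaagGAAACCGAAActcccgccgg
DDX60L, 80 bases before the start: gaaaactgcgGAAATCGAAAaggcctcgcg
DDX60L, 50 bases before the start: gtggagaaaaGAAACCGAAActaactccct

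Of the other 45 members with a window, 1 held the core, DHX15, at 215 bases before its start. Across all windows, 3.57% of 35116 held it, and 4.38% of 27305 genes had at least 1 window with it. Among the listed interferon-stimulated genes with a window, 19 of 27 did. A match of these letters is a description of the window, and binding was not measured.

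Over all members, 7 of the 49 tested were called lower at an adjusted p below 0.05 and 0 were called higher, beside 4.81% of all genes called lower and 3.48% called higher. With a 2-fold change also required, 2 were called lower and 0 higher, beside 2.07% and 0.447% of all genes, and the 2 are DDX60 and DDX60L. At an unadjusted p below 0.05 in edgeR's quasi-likelihood test, 8 were lower and 1 was higher, which are 16.3% and 2.04% of the members beside 13.2% and 12.2% of all genes. DESeq2 and edgeR's exact test each called 1 member higher, DHX32, beside 5.63% and 5.92% of all genes called higher. By limma-voom 0 members were called higher, beside 3.41% of all genes. The groups did not overlap for 10 members that were lower and 5 that were higher in TFAM-OE, which are 20.4% and 10.2% of the members beside 15.8% of all genes in each direction.

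The 5 calls beyond the pair were of modest size, and all 5 were lost in 4 of the 6 fits with a library left out. Without control 1, control 2, control 3 or TFAM-OE 2, the only members called were DDX60 and DDX60L. In those fits the log2 fold changes of the 5 genes still lay between -0.51 and -0.32, and of all genes 1.50%, 1.42%, 4.42% and 1.55% were called lower. Without TFAM-OE 3 the calls were 10 lower and 1 higher, and the calls over all genes rose to 10.5% lower and 8.43% higher. Leaving out TFAM-OE 1 gave the same 7 calls. Of the alternatives that change only the test, the unit, the scaling or the gene filter, 3 also ended a call. DDX20 was not called by limma-trend on log2(FPKM + 0.1) or log2(FPKM + 1) (adjusted p = 0.0513 and 0.0596), nor DDX10 by edgeR with upper-quartile scaling (adjusted p = 0.0531). DDX60 and DDX60L were called in each of these fits. By role, the 5 calls are 1 or 2 genes each, beside 4.81% of all genes called lower, so they are given below as single genes and not as results about a role.

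**Figure D2:**
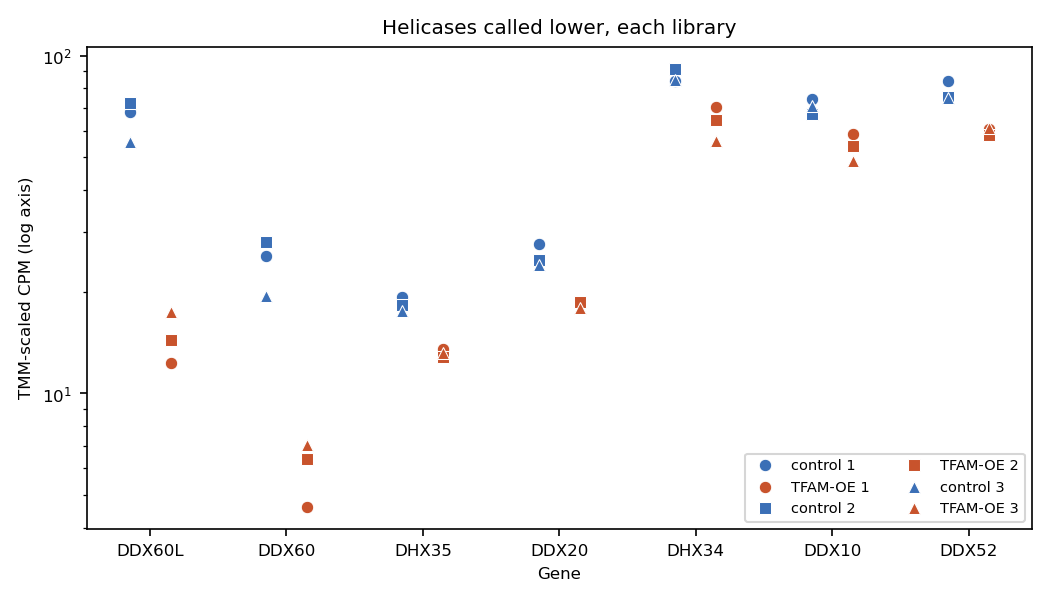
CPM after TMM scaling (log axis) of the 7 helicases called lower, with 1 point per library, control in blue and TFAM-OE in orange, the shape giving the replicate. The libraries of the groups lie far apart for DDX60L and DDX60 and close together, without overlap, for the other 5.

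Among the helicases of translation and mRNA decay, 1 of 5 was called lower, or 20%, beside 4.81% of all genes. DHX34, a factor of nonsense-mediated decay, had 83.9, 91.3 and 84.7 CPM in the control libraries and 70.5, 64.6 and 55.7 CPM in the libraries labelled TFAM-OE. The groups did not overlap, and edgeR's quasi-likelihood test gave -0.45 on the log2 scale (standard error 0.109, adjusted p = 0.0357). DDX3X, which aids the translation of structured mRNAs and was the most abundant of the 5, had 336, 320 and 307 CPM against 214, 271 and 343 CPM. Its libraries labelled TFAM-OE spread to both sides of the controls, and its log2 fold change was -0.22 (standard error 0.152). The other members were DDX6 of mRNA decay, the scanning factor DHX29 and the G-quadruplex helicase DHX36, and the median of the 5 was -0.22. DHX36 was at -0.43 (standard error 0.194), near DHX34, but its groups overlapped. It was not called by edgeR's quasi-likelihood test (adjusted p = 0.200), and was called in 2 of 17 alternatives.

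Of 10 splicing helicases, 1 was called lower, or 10%, beside 4.81% of all genes. DHX35, found in spliceosomes, had 19.3, 18.3 and 17.5 CPM in the control and 13.6, 12.8 and 13.2 CPM in the libraries labelled TFAM-OE. The libraries within each group lay close together and the groups did not overlap, and edgeR's quasi-likelihood test gave -0.48 on the log2 scale (standard error 0.113, adjusted p = 0.0321). DDX39B, the most abundant of them, had a log2 fold change of -0.01 (standard error 0.126). The 10 ranged from -0.48 to 0.15 with a median of -0.07, and DHX15, which takes spent spliceosomes apart, was the highest. None of the 3 export helicases was called, and they ranged from -0.16 for DDX39A to 0.22 for DDX19B, a helicase of the nuclear pore. DDX19A and DDX19B share sequence, with 17.4% of the 100-base stretches of the main DDX19A transcript also found in DDX19B, so their separate values are less certain.

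Ribosome biogenesis was the largest group, and 2 of its 16 members were called lower, or 12.5%, beside 4.81% of all genes. DDX10 had 74.2, 67.0 and 70.9 CPM in the control and 58.7, 54.0 and 48.8 CPM in the libraries labelled TFAM-OE. DDX52 had 84.0, 75.4 and 75.0 CPM against 60.5, 58.3 and 61.1 CPM. Both are nucleolar proteins, and neither gene's groups overlapped. By edgeR's quasi-likelihood test the log2 fold change was -0.39 for DDX10 (standard error 0.103, adjusted p = 0.0457) and -0.38 for DDX52 (standard error 0.0935, adjusted p = 0.0360). DDX56, the most abundant of the 16, had a log2 fold change of -0.02 (standard error 0.146), and the median of the group was -0.05. Its highest value was 0.17, for DDX49.

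Of the 5 helicases of transcription and RNA processing, DDX20 was called lower, or 20%, beside 4.81% of all genes. DDX20, known as Gemin3, belongs to the SMN complex that assembles snRNPs. It had 27.7, 24.8 and 24.1 CPM in the control and 18.6, 18.7 and 17.9 CPM in the libraries labelled TFAM-OE, with no overlap. By edgeR's quasi-likelihood test it fell by 0.47 on the log2 scale (standard error 0.110, adjusted p = 0.0296). DDX5 had a log2 fold change of 0.02 (standard error 0.0959), and DDX1, DDX17 and DHX9 lay between -0.08 and 0.10.

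In GENCODE, 23 of the 51 members overlap another coding gene, DDX20 among them, and their values are less certain for that reason.

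Both mitochondrial helicases were near 0. DHX30, of mitochondrial RNA granules, had 133, 153 and 148 CPM in the control and 160, 142 and 118 CPM in the libraries labelled TFAM-OE, and DDX28, which serves mitochondrial ribosome assembly, had 35.6, 40.1 and 39.0 CPM against 40.5, 40.2 and 29.8 CPM. The groups overlapped for both, with log2 fold changes of -0.05 for each (standard errors 0.122 and 0.134). DDX11, a DNA helicase of chromatid cohesion, had a log2 fold change of 0.01 (standard error 0.0949). Of the 3821 stretches of 100 bases in its main transcript, 496 are also in the pseudogene DDX12P, so its value is less certain.

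Of the 4 less characterised members, DHX32 was the nearest to a call in the higher direction. It had 34.3, 35.0 and 37.1 CPM in the control and 47.6, 41.6 and 49.8 CPM in the libraries labelled TFAM-OE. Every library labelled TFAM-OE lay above every control, and its value of 0.39 on the log2 scale (standard error 0.106) missed the threshold of edgeR's quasi-likelihood test (adjusted p = 0.0530). DHX40, the most abundant of the 4, had a log2 fold change of 0.27 (standard error 0.129).

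**Figure D3:**
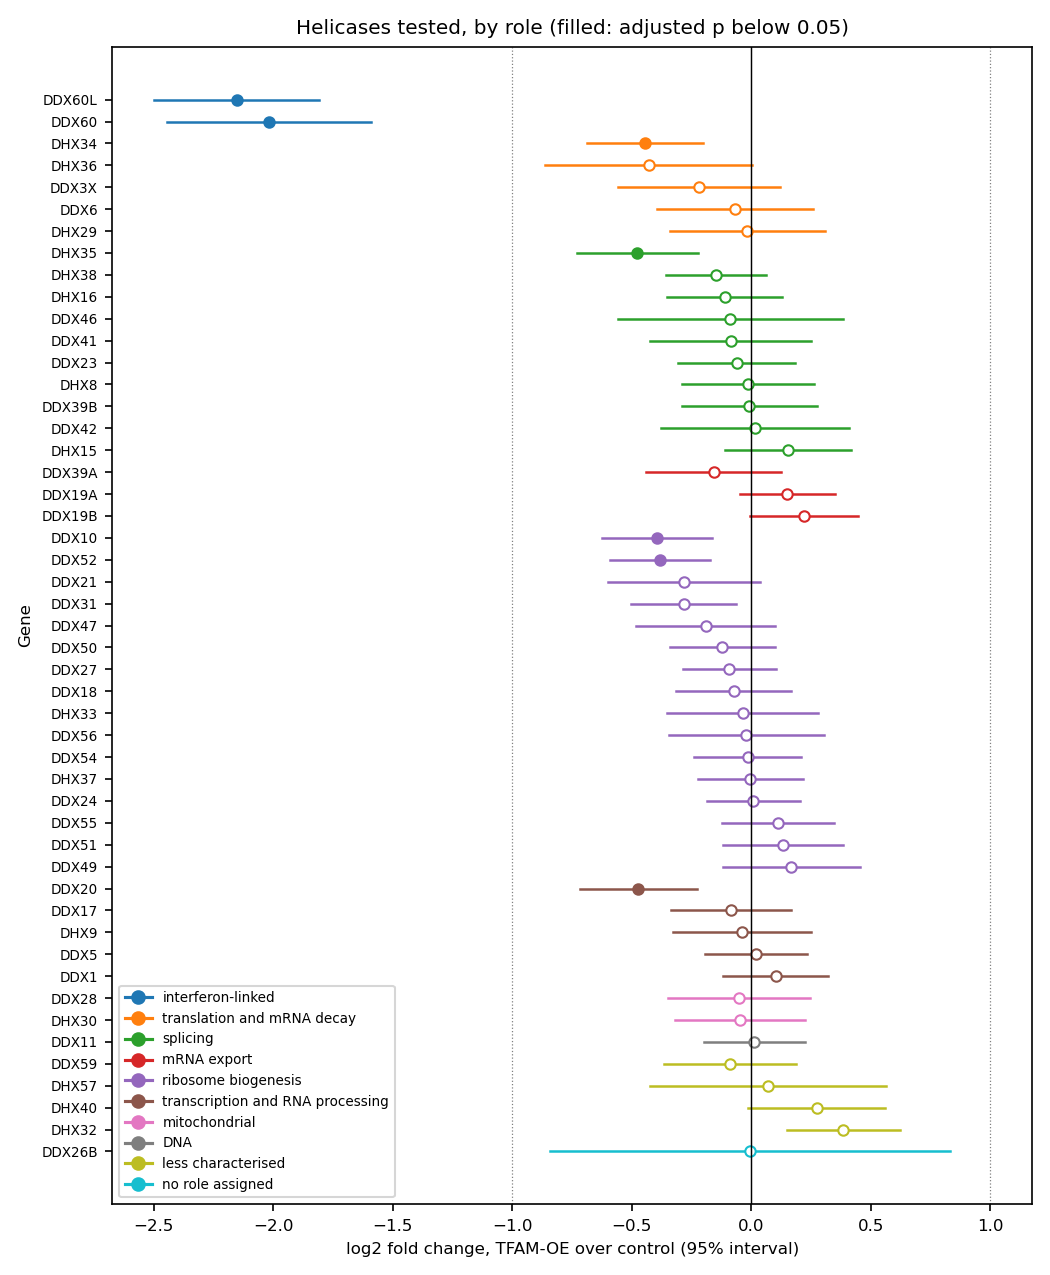
The log2 fold change of TFAM-OE over control (points) with its 95% interval (lines) for the 49 helicases tested, coloured by role and filled where the adjusted p was below 0.05, with dotted lines at a 2-fold change. DDX60L and DDX60 lie beyond the dotted line on the left, at -2.15 and -2.02, and the other 47 points lie between -0.48 and 0.39.

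Over the 47 tested helicases other than the pair, the median log2 fold change was -0.05, with 33 values negative and 14 positive. Over all 16555 genes tested the median was -0.01, with 8457 values negative and 8098 positive. For the 42 of them that were not called, all 42 of the 95% intervals lay within a 2-fold change in either direction and 38 lay within a 1.5-fold change.

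The libraries themselves differed more within TFAM-OE than within the control. Over the 47 helicases the median range between the 3 libraries of a group was 0.16 in the control and 0.37 in TFAM-OE on the log2 scale, and 38 of the 47 were wider in TFAM-OE. Over all genes the median ranges were 0.28 and 0.38, and how many were wider in TFAM-OE was not counted. The order of the libraries labelled TFAM-OE went in both directions. TFAM-OE 1 was the lowest and TFAM-OE 3 the highest of the 3 in 22 of the 47 helicases, or 46.8%, and the order was the opposite in 17, or 36.2%, beside 30.3% and 34.6% of all genes.

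Some examples, chosen after their values were seen, show the size of this spread. DDX46, of the U2 snRNP, had 38.8, 60.7 and 80.0 CPM in the libraries labelled TFAM-OE and 62.4, 68.4 and 59.9 CPM in the control. DDX56 went the other way, with 248, 208 and 161 CPM in TFAM-OE and 191, 215 and 220 CPM in the control. In both genes the libraries labelled TFAM-OE lay on both sides of the controls, so a mean of the group hides most of the variation. DDX60L and DDX60 also had TFAM-OE 1 lowest and TFAM-OE 3 highest, by 0.50 and 0.61 on the log2 scale, which is small beside their distance from the control.

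This difference between TFAM-OE 3 and TFAM-OE 1 went with the base composition and the length of the transcript. Across the 47 helicases, which are not independent replicates and share the same pair of libraries, Pearson's r was -0.66 (Spearman's rho -0.68) with the GC content of the main GENCODE transcript and 0.61 (rho 0.60) with the log2 of its length. Over 16333 genes r was -0.34 (rho -0.39) with GC content and 0.40 (rho 0.49) with length. The 22 helicases with TFAM-OE 1 lowest and TFAM-OE 3 highest had a median GC content of 42.9%, and the 17 with the opposite order had 56.6%. The log2 fold change between the groups went much less with either, with r of 0.09 (rho 0.14) for GC content and -0.20 (rho -0.13) for length over the 47 helicases. Whether base composition or length has a part in this spread was not tested.

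**Figure D4:**
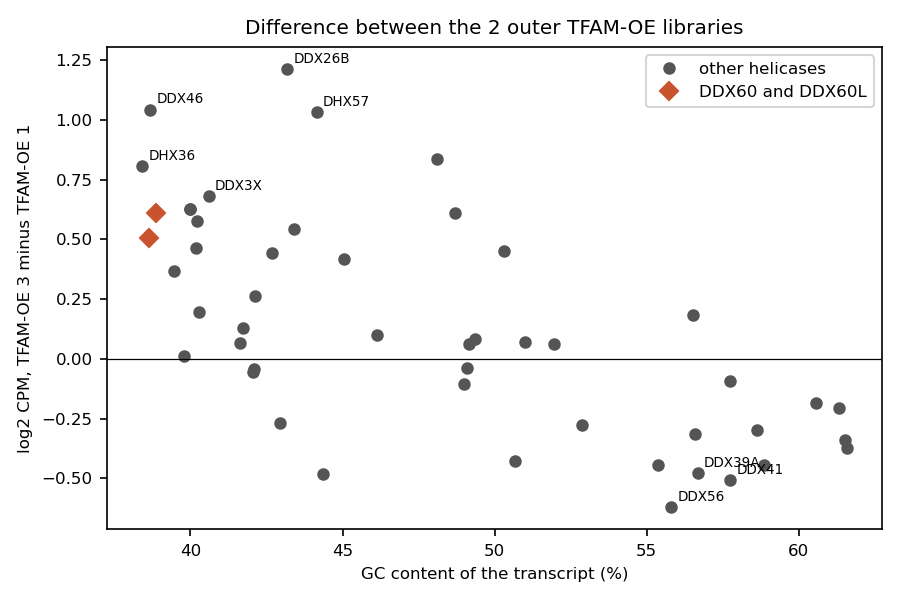
The log2 CPM of TFAM-OE 3 minus that of TFAM-OE 1 (vertical axis) against the GC content of the main transcript in percent (horizontal axis), with 1 point per helicase tested. Helicases of low GC content lie mostly above 0 and those of high GC content mostly below, with r = -0.66 over the 47 grey points.

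RNA helicases of other names gave a comparison outside the DDX and DHX symbols. Of 18 tested, 3 were called lower and 1 higher, which are 16.7% and 5.56% beside 4.81% and 3.48% of all genes, and the median difference was -0.21 on the log2 scale. HELZ2, an interferon-induced coactivator with helicase domains, had 232, 290 and 279 CPM in the control and 97.7, 85.7 and 72.9 CPM in the libraries labelled TFAM-OE. ZNFX1, an interferon-induced sensor of viral RNA, had 156, 152 and 149 CPM against 79.4, 82.0 and 81.8 CPM. For both, the groups lay clearly apart. The log2 fold change by edgeR's quasi-likelihood test was -1.64 for HELZ2 (standard error 0.133, adjusted p = 1.06e-04) and -0.91 for ZNFX1 (standard error 0.0855, adjusted p = 2.72e-04). MOV10, also induced by interferon, was at -0.39 (standard error 0.110, adjusted p = 0.0575 in the same edgeR test) and was not called. It was called in 5 of 17 alternatives, among them DESeq2 and edgeR's exact test, and its adjusted p over all 17 ran from 0.0295 to 0.207 (edgeR, DESeq2 or limma). The third gene called lower, EIF4A2 (-0.62), is outside the rule for named genes and is given because it completes the count. At the other end were SKIV2L of the cytoplasmic exosome, which was called higher at 0.50, and the spliceosomal SNRNP200 at 0.16. Without control 1, control 2 or TFAM-OE 2, none of the 18 was called higher and only HELZ2 and ZNFX1 were called lower, so the calls of SKIV2L and EIF4A2 were lost. ZNFX1 overlaps DDX27, whose log2 fold change was -0.09, so reads of these neighbours are less certain.

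Of 42 proteins tested that activate or accompany the helicases, 2 were called lower and 1 higher. These are 4.76% and 2.38%, near the 4.81% and 3.48% of all genes, and the median difference was -0.01 on the log2 scale. The lowest were the cap methyltransferase CMTR1 (-0.53), which was called, and the decapping factor DCP1A (-0.53), which was not. GPATCH4 (-0.51), a nucleolar G-patch protein, was the other call and is named after its value was seen. Of the 42, 1 was called lower without control 1 and 0 were without control 2 or TFAM-OE 2. The count was 2 without control 3, 3 without TFAM-OE 1 and 6 without TFAM-OE 3, so it depended on which library was left out. The highest were THOC6 of the THO export complex, called at 1.03 and the only one of the 42 past a 2-fold change, and GPATCH11 at 0.41, which was not called.

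The listed interferon-stimulated genes give the scale for DDX60 and DDX60L. Each of the 33 tested passed in the lower direction, beside 4.81% of all genes, and their median on the log2 scale was -2.55. The list was chosen with earlier results of these data known, so this count is a description and not independent support. IRF9 had too few reads to test. The lowest were IFI27 (-4.00) and RSAD2 (-3.78), and the highest were IFIT5 (-1.27) and STAT2 (-1.02). Both helicases lay inside this range, and above its median. The listed genes nearest to DDX60 were SAMD9 (-1.999) and OAS1 (-1.99), and those nearest to DDX60L were IFIH1 (-2.20), itself a sensor of viral RNA with a helicase domain, and SAMD9L (-2.28). SAMD9 had 53.9, 68.5 and 51.8 CPM in the control and 10.4, 15.6 and 17.5 CPM in the libraries labelled TFAM-OE, with the same lowest and highest libraries in each group as DDX60L. OAS1 had 297, 349 and 366 CPM against 113, 80.1 and 61.6 CPM, with the libraries labelled TFAM-OE in the opposite order.

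**Figure D5:**
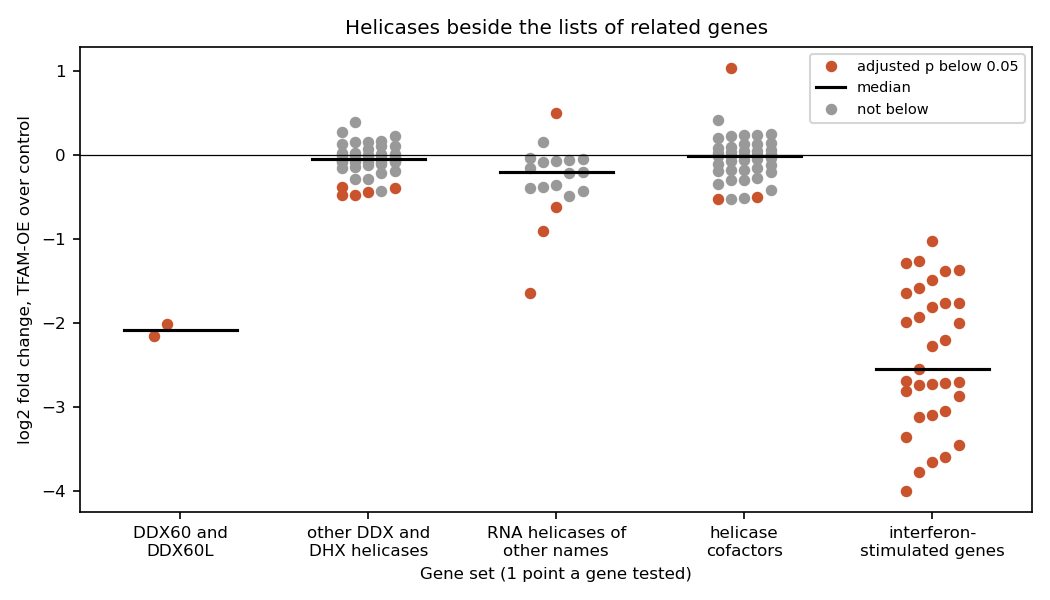
The log2 fold change of TFAM-OE over control for each gene tested (points), in orange where the adjusted p was below 0.05 and grey otherwise, with black lines at the medians. DDX60 and DDX60L lie within the range of the 33 interferon-stimulated genes, from -4.00 to -1.02, while the other helicases lie around a median of -0.05.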

How the data were processed

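RNA-seq of 6 libraries was used, 3 control and 3 TFAM-OE, grouped by their labels. The authors trimmed the reads with FASTX-Toolkit, aligned them with TopHat2 to GRCh38, and deposited a count of uniquely mapped reads and an FPKM value per gene and library. The submitters' notes also name bcl2fastq and edgeR. Their versions, how reads were assigned to genes and whether strand was used were not stated in those notes or the methods. Value columns not used numbered 0.

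Counts were tested in R 4.3.3 with edgeR 4.0.16 (glmQLFit and glmQLFTest, TMM, 16555 genes kept by filterByExpr, two-sided, Benjamini-Hochberg over all genes tested). A call needs an adjusted p below 0.05 and, where stated, a change of at least 2-fold. The p-values measure the spread between 3 cultures per group, and an exact permutation test of 3 against 3 cannot give a two-sided p below 0.1. Alternatives used DESeq2 1.42.0, limma 3.58.1 (voom, and trend on FPKM with 0.1 or 1 added), edgeR's exact test, other scalings and gene filters, a replicate block and each library left out. The gene test was checked on simulated data. Coordinates, transcript length and GC content come from GENCODE 44, which held all 51 members, with Python 3.11.15, pandas, scipy and matplotlib.

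The members and the gene lists were chosen with earlier results of these data known. The text names DDX60, DDX60L and TFAM, every member called, and in each role the members of highest mean FPKM and of largest absolute log2 fold change. It also names the members with few reads, the 2 lowest and 2 highest of each other list, the 2 interferon-stimulated genes nearest to DDX60 and to DDX60L, and HELZ2, ZNFX1 and MOV10.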

Additional observations from a re-analysis of the deposited data

How the results depend on the processing

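DDX60 and DDX60L stayed lower and were called under all 17 alternatives, with log2 fold changes from -2.16 to -1.26 and from -2.29 to -1.69. The smallest sizes came from log2(FPKM + 1), whose added 1 shrinks low values. With a replicate block, 2 helicases were called lower in place of 7, with the 5 beyond DDX60 and DDX60L all lost (adjusted p from 0.125 to 0.149), 0 RNA helicases of other names higher and 0 cofactors lower, and over all genes 285 were lower and 74 higher. Deviations of libraries of the same number correlated at -0.30, 0.04 and -0.36, and those of different numbers at between -0.09 and 0.34. The deviations are taken from means of 3 libraries and so depend on one another. These values therefore cannot settle whether the numbers pair the libraries. Testing all genes with at least 1 read called 1 helicase higher and 5 cofactors lower, beside 3.46% of all genes higher and 4.98% lower. DESeq2 and edgeR's exact test each called 1 helicase higher, beside 5.63% and 5.92% of all genes. With a library left out, the helicases called ranged from 2 to 10 lower and from 0 to 1 higher, and the median of the others from -0.0947 to -0.0248. The share of all genes called in these fits itself ranged from 1.42% to 10.5% lower and from 0.391% to 8.43% higher. The RNA helicases of other names ranged from 2 to 8 lower and from 0 to 1 higher, and the cofactors from 0 to 6 lower and from 1 to 3 higher. Fits without a library rest on fewer samples, and the cause of the other differences was not tested. On CPM in place of FPKM, DDX60 and DDX60L made up 1.80% of the helicases in the control and 0.438% in TFAM-OE, against 0.915% and 0.221%, because CPM is not divided by length. The interferon-stimulated genes called lower numbered from 31 to 33 over the 17 alternatives, beside 1.42% to 10.5% of all genes. DDX26B, DDX4 and DDX25 had too few reads to bound a change closely or at all.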
